A study of Mus musculus with 8 samples.

Results

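The genes described here are 9 components of the machinery with which crypt epithelial cells answer a muscarinic signal with calcium release and with fluid and ion secretion: the receptor gene Chrm3, the calcium release channel genes Itpr1, Itpr2 and Itpr3, the potassium channel genes Kcnn4, Kcnq1 and Kcne3, the chloride channel gene Cftr and the chloride uptake gene Slc12a2. They were taken from the gene count table as the rows whose Ensembl ID carries one of these symbols in the GENCODE mouse annotation. Each symbol matched 1 ID, which gave 9 of the 55414 genes in the table, and all 9 had enough counts to be tested.

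The counts came from Paneth cells, the granule-filled secretory cells at the bottom of small intestinal crypts, sorted from mouse small intestine by FACS. There were 8 libraries of stranded, poly(A)-selected RNA. The 4 TG libraries came from mice of the DT TG genotype, in which Paneth cells express diphtheria toxin, a bacterial protein that blocks protein synthesis. The 4 WT libraries came from wild type mice. The series is titled as a profile of purified cells after depletion of mature Paneth cells. The TG cells were labelled as Paneth cells too, and the labels do not tell how these cells relate to the depletion. Sorted mice were of the C57BL/6J strain, which is stated for the sorts in general and not for each library. The labels used here do not give the promoter that drives the toxin, the number of transgenic lines, or the age of the mice, and they name no treatment for either group. The study describes its sorts as coming from individual mice, but the labels do not tie libraries to animals, so that p-values measure the spread between these libraries.

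Acetylcholine that binds the M3 receptor activates Gq and phospholipase C, which makes inositol trisphosphate, and this messenger opens calcium channels in the endoplasmic reticulum. Calcium opens basolateral potassium channels, which keep the cell negative inside and so drive chloride out through apical channels, while a basolateral cotransporter refills the cell with chloride. Paneth cells release their granules into the crypt lumen in answer to muscarinic agonists, and their granule release depends on a rise in calcium.

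Total counts ranged from 13107397 to 16218434 per library. The 4 Y-linked genes counted as a check had 0 counts in replicates 1 and 2 of TG and of WT and 897 to 1564 counts in replicates 3 and 4, so that each group held both kinds of library, and values within each kind are given below where they bear on a result. Paneth markers were abundant: 8 genes including Lyz1 and Defa24 had a summed level of 370928 to 455294 CPM (counts scaled to one common library size) in TG and 352008 to 530891 in WT. Of these 8 markers, 3 were called lower in TG (Mmp7, Ang4 and Mptx2) and 0 higher. Markers of absorptive enterocytes were present at low levels and differed between the groups, with 6 of 12 called higher in TG and 0 lower, and a summed level of 632 to 772 CPM in TG against 429 to 539 CPM in WT. Goblet markers had a higher summed level than enterocyte markers, 8519 to 11774 CPM in TG and 10720 to 12439 CPM in WT, and 0 of 6 were called. Tuft and enteroendocrine markers were detected with 0 called genes, and 3 of 7 enteroendocrine markers were not tested. Of 4 stem cell markers, with a summed level of 1620 to 2355 CPM in TG and 1549 to 2226 CPM in WT, 1 was called lower in TG (Smoc2, 150.1 ± 9.75 CPM in TG and 191 ± 10.8 CPM in WT, edgeR adjusted p = 0.0139) and 0 higher. The immune markers summed to at most 2.20 CPM in any library and the mesenchymal markers to at most 0.966 CPM. The part that other cells have in the results below was not tested. In RNA from pooled sorted cells, fewer cells of a type and less RNA per cell cannot be told apart.

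Of the 9 genes, 3 were higher in TG (Cftr, Slc12a2 and Itpr1), 1 was lower (Kcne3), and 5 did not pass the test (edgeR's quasi-likelihood test, Benjamini-Hochberg adjusted p below 0.05 over 11929 tested genes). Over all tested genes, 8.26% were called higher and 9.65% lower, 17.9% in either direction, which is 985 and 1151 genes. Library sizes without TMM factors gave 787 genes higher and 263 lower, and left Slc12a2 and Kcne3 as the called genes of the 9. With each library left out in turn, Kcne3 was the 1 gene called lower each time, while 1 to 5 of the 9 were called higher (1 without TG-1, TG-2, TG-3, WT-1 or WT-2, and 5 without WT-3). Of all tested genes those fits called 485 to 1045 higher and 553 to 1183 lower. The median log2 fold change, TG over WT, was 0.25 over the 9 genes and 0.01 over all tested genes. For 2 of the 9 genes, Slc12a2 and Kcne3, the normalised values of TG and WT libraries did not overlap, against 22.0% of all tested genes. Fold changes below are given on the log2 scale, TG over WT, with levels in CPM scaled by TMM factors, which adjust library sizes so that most genes have the same level across libraries.

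**Figure D1:**
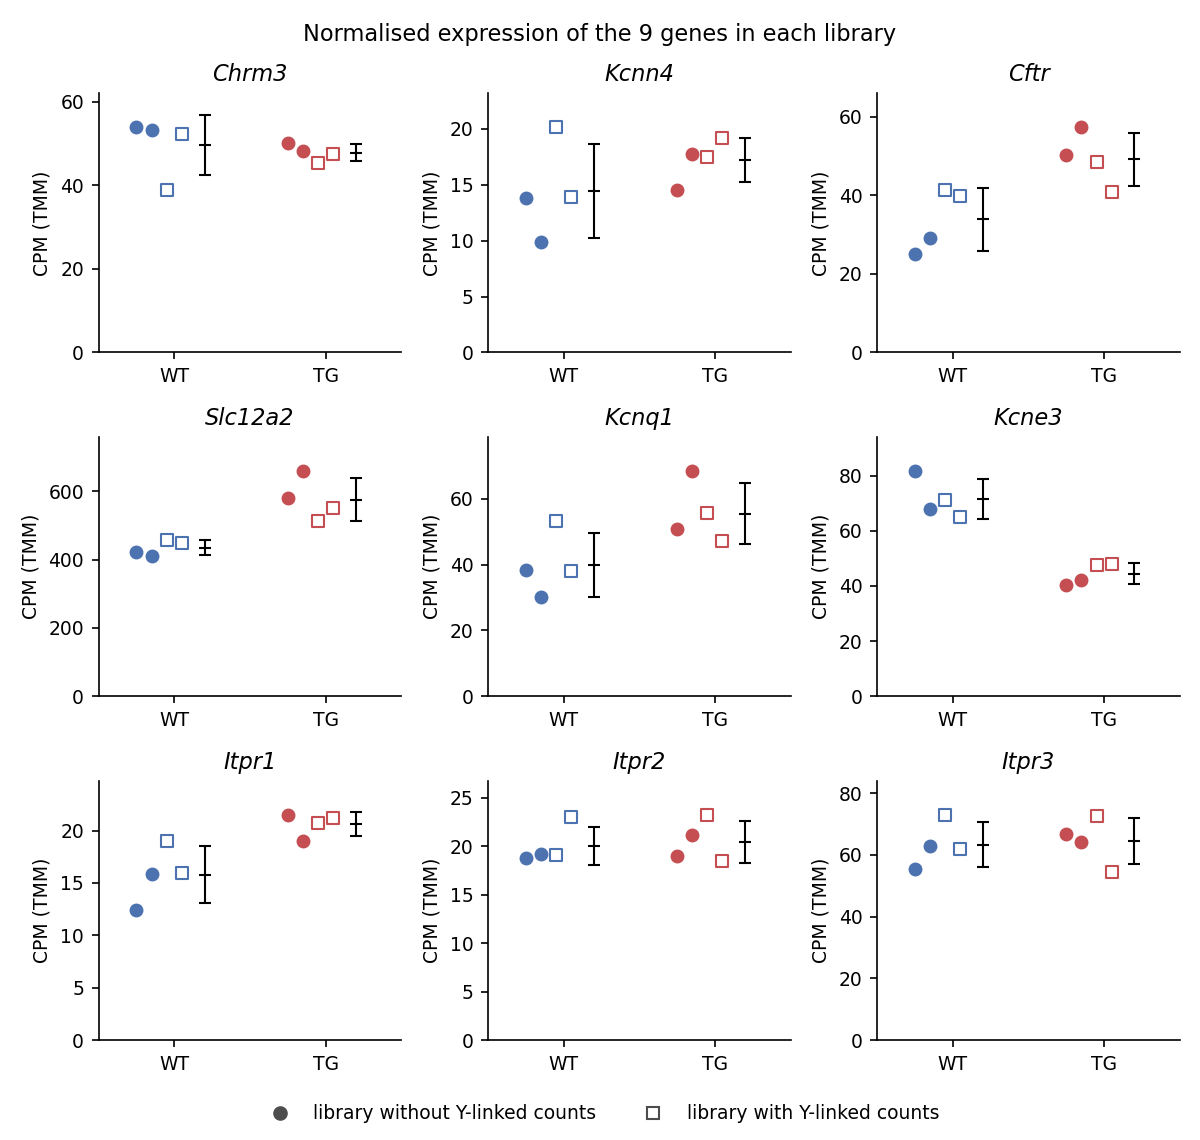
Normalised expression of the 9 genes in each library. The y axis of each panel is CPM with TMM factors and starts at 0, each point is 1 library (blue WT, red TG, open squares the libraries with Y-linked counts), and the bar beside each group is the mean with 1 SD (n = 4). Kcne3 is the gene whose 4 TG libraries, at 40.2 to 48.0 CPM, lie below the 4 WT libraries, at 64.8 to 81.6 CPM, and Slc12a2 is the gene whose 4 TG libraries lie above the 4 WT libraries.

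Levels of different genes were compared as CPM per kb of annotated exon, averaged over the 8 libraries. Slc12a2 led the 9 genes with 39.8 CPM per kb, place 381 among 11914 ranked genes, and its range over libraries did not overlap that of any other of the 9 genes. Kcnq1 (9.31), Kcne3 (8.46), Chrm3 (7.79), Cftr (5.34) and Itpr3 (5.33 CPM per kb) formed a middle group in which each gene's range overlapped that of its neighbour in this order. Kcnn4 (2.00), Itpr2 (1.3) and Itpr1 (0.993 CPM per kb) were the lowest, with the ranges of Itpr3 and Kcnn4 apart and those of neighbours below Kcnn4 overlapping. The places of Itpr1 and Itpr2 depended on the library and on the length used. With the exon union, Itpr1 lay just above Itpr2 in TG-1 and TG-4 and below it in the other libraries. With the longest transcript, Itpr1 lay above Itpr2 in every TG library and in WT-3. The order of neighbours depended on the group: Kcne3 lay above Chrm3 in every WT library and below it in every TG library.

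Chrm3 encodes the M3 muscarinic acetylcholine receptor, a Gq-coupled receptor. The gene (ENSMUSG00000046159) lies on the minus strand of GRCm39 at chr13:9925522-10410883. Its level was 50.1, 48.3, 45.3 and 47.5 CPM in TG-1 to TG-4, and 53.9, 53.3, 38.8 and 52.3 CPM in WT-1 to WT-4. The TG libraries lay within the range of the WT libraries, and WT-3 was the lowest of the 8. The mean and SD over 4 libraries were 47.8 ± 1.98 CPM in TG and 49.6 ± 7.19 CPM in WT, a log2 fold change of -0.05 with a 95% interval from -0.27 to 0.17 (edgeR adjusted p = 0.764).

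Among the other muscarinic receptor genes, Chrm1, which encodes a second Gq-coupled subtype, was detected with 29.0 ± 3.36 CPM in TG and 27.1 ± 2.65 CPM in WT, and was not called (log2 fold change 0.09, edgeR adjusted p = 0.579). Per kb of exon its level over the 8 libraries was 3.51 CPM, against 7.79 for Chrm3. Chrm2 and Chrm5 had 0 counts in every library, and Chrm4 had 18 counts over the 8 libraries. The genes that follow the receptor formed a list of 15 together with Chrm1, Chrm2, Chrm4 and Chrm5 (G protein, phospholipase C, receptor kinase and arrestin genes), of which 11 were tested. Beside 8.26% higher and 9.65% lower over all tested genes, 1 gene of this list was higher in TG and 0 were lower. The median log2 fold change of the list was 0.09. The gene called was Arrb1, an arrestin that binds activated receptors, which rose by 0.54 (52.1 ± 4.61 CPM in TG, 35.7 ± 4.17 CPM in WT, edgeR adjusted p = 0.00310). Gnaq and Gna11, which encode the G protein subunits that couple the receptor to phospholipase C, had log2 fold changes of -0.16 and 0.01 and were not called.

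The inositol trisphosphate receptors are the calcium release channels of the endoplasmic reticulum, built from the products of Itpr1, Itpr2 and Itpr3. Itpr1 (ENSMUSG00000030102, chr6:108190048-108528070, plus strand) was at 21.5, 19.0, 20.7 and 21.2 CPM in TG-1 to TG-4, and at 12.4, 15.9, 19.1 and 15.9 CPM in WT-1 to WT-4. The groups overlapped by a small margin, with WT-3 just above TG-2, and the other WT libraries were below all TG libraries. Its mean was 20.6 ± 1.13 CPM in TG and 15.8 ± 2.73 CPM in WT, a rise of 0.38 with an SE of 0.12 (edgeR adjusted p = 0.0424). The call was near its threshold: with each library left out in turn it passed in 1 of 8 fits, the one without WT-3, and the adjusted p of the 8 fits ranged from 0.0171 to 0.116. In replicates 1 and 2, the libraries that had no Y-linked counts, the log2 fold change was 0.52 (edgeR adjusted p = 0.0884), and in replicates 3 and 4 it was 0.27 (edgeR adjusted p = 0.370), so that Itpr1 passed in neither kind.

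Itpr2 (ENSMUSG00000030287, chr6:146009797-146403721, minus strand) was at 18.9, 21.2, 23.2 and 18.5 CPM in the 4 TG libraries and at 18.8, 19.2, 19.1 and 23.0 CPM in the 4 WT libraries. The groups covered nearly the same range, with 1 high library in WT (WT-4). Itpr3 (ENSMUSG00000042644, chr17:27275971-27343866, plus strand) was at 66.8, 64, 72.5 and 54.5 CPM in TG and at 55.3, 63.0, 72.9 and 62.0 CPM in WT. Here too the groups overlapped over most of their range. The log2 fold changes were 0.03 for both genes, with 95% intervals from -0.20 to 0.26 for Itpr2 and from -0.20 to 0.25 for Itpr3 (edgeR adjusted p = 0.862 and 0.888), so that a change of more than 0.26 in either direction lay outside both intervals. Itpr3 and its neighbour Uqcc2, on the opposite strand, share 444 exonic bases in the annotation. Uqcc2 had 1688 counts over the 8 libraries, and the strand setting of the counting is not given in the sources used here.

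Within each library the 3 receptor genes were also set against each other, as shares of their summed level per kb. Itpr3 made up 69.1 ± 1.85% of the sum in TG and 71.5 ± 1.63% in WT. Itpr2 made up 16.3 ± 1.01% in TG and 16.9 ± 2.10% in WT. The share of Itpr1 was 14.6 ± 1.71% in TG (13.1 to 16.9%) and 11.6 ± 0.854% in WT (10.5 to 12.5%). The groups did not overlap in this share, by a small margin, while they did overlap in the CPM of Itpr1. For comparison, the CPM of 22.0% of all tested genes did not overlap, and the share was not tested. Itpr3 was the most abundant of the 3 in all 8 libraries by RNA level, while the order of the other genes depended on the library and the length used. With the longest transcript as length, the mean share of Itpr1 in TG was 22.8%, above that of Itpr2 at 18.8%, and in WT it was 18.5%, below that of Itpr2 at 19.8%.

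Other genes of calcium handling were described as a pair of lists. Of 20 genes of calcium stores, entry and pumps, 16 were tested, 0 were higher and 3 were lower in TG, with a median log2 fold change of -0.05, beside 9.65% called lower among all tested genes. Without TMM factors 0 genes of this list or of the other secretion lists were called lower by edgeR. Atp2c1, a calcium and manganese pump of the Golgi, fell by 0.46 (68.8 ± 1.1 CPM in TG, 95 ± 8.62 CPM in WT, edgeR adjusted p = 0.00299). Atp2a2, which encodes the SERCA2 pump that refills the endoplasmic reticulum with calcium, fell by 0.49 (254 ± 28 CPM in TG, 356 ± 49.0 CPM in WT, edgeR adjusted p = 0.0105). Atp2a3, which encodes SERCA3, a second pump of this kind, had a higher level per kb (129 CPM per kb over the 8 libraries, against 24.9 for Atp2a2) and was not called (720 ± 41.8 CPM in TG, 659 ± 44.8 CPM in WT, log2 fold change 0.13, edgeR adjusted p = 0.377). The store sensors Stim1 and Stim2 and the entry channel genes Orai1, Orai2 and Orai3 were not called, and the ryanodine receptor genes Ryr1, Ryr2 and Ryr3, the other family of release channels, had 0 counts.

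Of 10 genes whose products bind the inositol trisphosphate receptor or convert its ligand, 9 were tested, with 1 higher and 2 lower in TG. The share called over all tested genes was 17.9%. Erp44, an endoplasmic reticulum protein that binds the type 1 receptor, fell by 0.46 (114 ± 14.3 CPM in TG, 157 ± 14.0 CPM in WT, edgeR adjusted p = 0.00816). Itpkc and Itpkb, kinases that phosphorylate inositol trisphosphate, moved in opposite directions: Itpkc fell by 0.51 (edgeR adjusted p = 0.0301) and Itpkb rose by 0.56 (edgeR adjusted p = 0.0398).

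Kcnn4 encodes KCa3.1, an intermediate-conductance potassium channel opened by calcium. The gene (ENSMUSG00000054342, chr7:24066915-24086115, plus strand) was at 14.5, 17.7, 17.4 and 19.1 CPM in TG-1 to TG-4, and at 13.8, 9.88, 20.1 and 13.9 CPM in WT-1 to WT-4. WT-3 was the highest and WT-2 the lowest of the 8 libraries, so that the TG libraries lay inside the WT range. The mean was 17.2 ± 1.95 CPM in TG and 14.4 ± 4.23 CPM in WT, a log2 fold change of 0.25 with a 95% interval from -0.13 to 0.63 (edgeR adjusted p = 0.349). Without WT-3 the log2 fold change was 0.45 and the adjusted p 0.0478, and without each of the other 7 libraries it was not called.

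Kcnq1 encodes the pore-forming subunit of a voltage-gated potassium channel, and Kcne3 encodes a small membrane subunit that joins it and holds it open at rest in intestinal crypt cells, where the pair carries a basolateral potassium current. Kcnq1 (ENSMUSG00000009545, chr7:142660099-142980788, plus strand) was at 50.9, 68.5, 55.8 and 47.1 CPM in TG-1 to TG-4, and at 38.4, 30.1, 53.3 and 38.1 CPM in WT-1 to WT-4. All TG libraries were above WT-1, WT-2 and WT-4, and WT-3 lay among the TG libraries. The mean was 55.5 ± 9.31 CPM in TG and 40.0 ± 9.67 CPM in WT, a log2 fold change of 0.47 with a 95% interval from 0.12 to 0.83, which did not pass the test (edgeR adjusted p = 0.0649). It passed with DESeq2 (adjusted p = 0.0344), with limma voom (0.0317) and without a filter on low counts (0.000147), and it passed without WT-3 (log2 fold change 0.64, edgeR adjusted p = 0.00926). The antisense gene Kcnq1ot1 overlaps 834 exonic bases of Kcnq1 on the opposite strand and had 0 counts in the table.

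Kcne3 (ENSMUSG00000035165, chr7:99825401-99836141, plus strand) was at 40.2, 42.0, 47.7 and 48.0 CPM in TG-1 to TG-4, and at 81.6, 68.0, 71.3 and 64.8 CPM in WT-1 to WT-4. Every TG library was below every WT library, with a gap between 48.0 and 64.8 CPM. The mean was 44.5 ± 3.96 CPM in TG and 71.4 ± 7.28 CPM in WT. Kcne3 fell by 0.68 on the log2 scale, with a 95% interval from -0.89 to -0.48, to 0.623 of the WT level (edgeR adjusted p = 0.000752), place 55 of 11929 by p. The call was made in each of the 8 leave-one-out fits, with adjusted p from 0.00133 to 0.00525. In the 4 libraries without Y-linked counts Kcne3 fell by 0.86 (edgeR adjusted p = 0.00335), and in the 4 with them its log2 fold change was -0.50 (edgeR adjusted p = 0.0501).

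The annotation gives Kcne3 more than 1 start, and RefSeq promoters are shown for 2 of them because Kcne3 was the gene of the 9 that fell. Each is 250 bases before a start, 5′ to 3′ on the plus strand, with its GRCm39 position found by an exact and unique match. Capitals mark matches on either strand to a CCAAT box (CCAAT, read as ATTGG on the other strand) or a GC box (GGGCGG), short motifs of many promoters. The table of promoters held entries for 6 of the 9 genes.
Kcne3 promoter 1, chr7:99825627-99825876: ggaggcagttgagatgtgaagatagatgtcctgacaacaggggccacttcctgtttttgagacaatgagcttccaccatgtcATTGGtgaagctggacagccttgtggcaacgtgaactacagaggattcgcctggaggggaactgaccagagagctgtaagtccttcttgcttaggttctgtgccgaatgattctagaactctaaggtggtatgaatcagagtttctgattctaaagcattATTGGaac
Kcne3 promoter 2, chr7:99827640-99827889: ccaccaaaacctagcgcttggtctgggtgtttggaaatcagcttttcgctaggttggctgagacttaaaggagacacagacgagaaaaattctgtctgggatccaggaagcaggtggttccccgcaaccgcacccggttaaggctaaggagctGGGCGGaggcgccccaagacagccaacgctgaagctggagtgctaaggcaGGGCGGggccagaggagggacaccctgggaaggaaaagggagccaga
The promoter of the upstream start had a GC content of 46.8%, CCAAT matches 168 and 8 bases before the start, and 0 GC boxes. The promoter of the downstream start had a GC content of 58.0%, GC boxes 97 and 47 bases before the start, and 0 CCAAT matches. Of 32851 promoters of this length, 33.8% held a CCAAT match and 32.7% a GC box. A match describes letters and not a bound site, and the counts per gene do not tell which start was used.

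With Kcne3 lower and Kcnq1 at or above its WT level, the balance of their RNA differed between the groups. The ratio of Kcne3 to Kcnq1, both per kb of exon, was 0.591, 0.460, 0.640 and 0.763 in TG-1 to TG-4, and 1.59, 1.69, 1.00 and 1.27 in WT-1 to WT-4. Every TG library had more Kcnq1 than Kcne3 RNA per kb, while WT-3 had about as much Kcne3 as Kcnq1 and the other WT libraries had more. The mean ratio was 0.614 ± 0.126 (SD, n = 4) for TG and 1.39 ± 0.313 for WT. With the longest transcript as the length of each gene the means were 0.530 and 1.20, and the ratio of WT-3 was 0.865, so that this library then had less Kcne3 than Kcnq1. The groups did not overlap with this length either, as the highest TG ratio was 0.660. For comparison, the CPM of 22.0% of all tested genes did not overlap. No test was made of this ratio, since the genes were chosen with results of these data known.

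**Figure D2:**
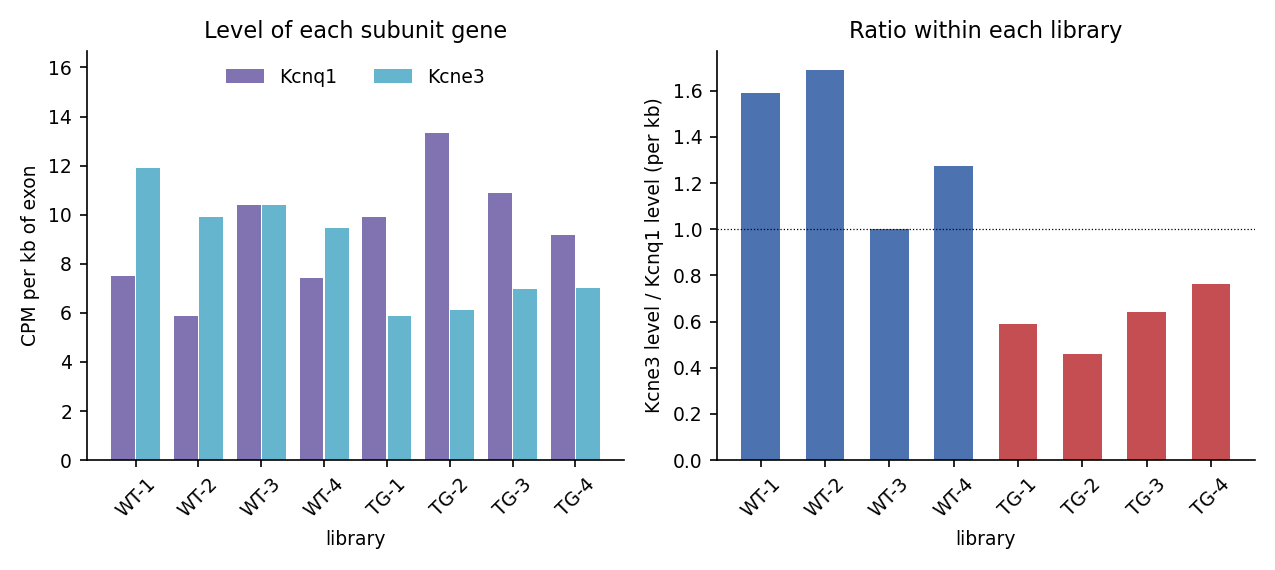
Left, levels of Kcnq1 and Kcne3 in each library as CPM per kb of exon, with bars from 0. Right, the ratio of Kcne3 to Kcnq1 in the same libraries (blue WT, red TG, dotted line at equal levels): WT libraries lie between 1.00 and 1.69 and TG libraries between 0.460 and 0.763.

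Other potassium channel and subunit genes ranged from 0 counts to levels above those of the potassium channel genes among the 9. Kcne1 and Kcne2, further partners of Kcnq1, had 0 counts in every library, and Kcne4 had 2 counts in all. Of the small-conductance relatives of Kcnn4, Kcnn2 and Kcnn3 had 0 counts, while Kcnn1 had 160 counts over the 8 libraries and was not called (log2 fold change 0.08, edgeR adjusted p = 0.895). Of 11 other potassium channel genes 5 were tested, with 1 higher and 1 lower in TG, beside 17.9% called over all tested genes. Kcnk1, a two-pore-domain channel gene, had the highest level of these 5, 49.5 CPM per kb over the 8 libraries, and was not called (115 ± 7.24 CPM in TG, 135 ± 16.5 CPM in WT, log2 fold change -0.24, edgeR adjusted p = 0.105). Kcnk6, of the same family, fell by 0.52 (49.0 ± 5.08 CPM in TG, 70.2 ± 6.20 CPM in WT, edgeR adjusted p = 0.00316). Kcnma1, which encodes the large-conductance BK channel opened by calcium and voltage, rose by 0.31 (35.6 ± 0.826 CPM in TG, 28.7 ± 4.2 CPM in WT, edgeR adjusted p = 0.0446).

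Cftr encodes the apical chloride and bicarbonate channel that is opened by cyclic AMP signalling and is mutated in cystic fibrosis. The gene (ENSMUSG00000041301, chr6:18170686-18322767, plus strand) was at 50.1, 57.3, 48.4 and 40.7 CPM in TG-1 to TG-4, and at 25.1, 29.1, 41.4 and 39.8 CPM in WT-1 to WT-4. The groups overlapped, with WT-3 just above TG-4, and WT-1 and WT-2 were well below the rest. The mean was 49.1 ± 6.81 CPM in TG and 33.8 ± 8.01 CPM in WT. Cftr rose by 0.54 with a 95% interval from 0.20 to 0.88 (edgeR adjusted p = 0.0342).

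The rise of Cftr was larger in the 4 libraries without Y-linked counts (TG-1 and TG-2 against WT-1 and WT-2), at 0.98 (edgeR adjusted p = 0.00181). In the 4 libraries with them the log2 fold change was 0.14 and did not pass (edgeR adjusted p = 0.585). The difference between these changes had an unadjusted p of 0.000635 in edgeR's test of the interaction, and an adjusted p of 0.330, so that it was not called over 11929 genes. That test called 3 genes in all, and 684 had an unadjusted p below 0.05. The call of Cftr also depended on single libraries, as it passed in 3 of 8 leave-one-out fits, with adjusted p from 0.0190 to 0.108. It did not pass without TG-1 (0.0875), TG-2 (0.108), TG-3 (0.0641), WT-1 (0.0592) or WT-2 (0.0739). With all 8 libraries Cftr did not pass with a replicate block (edgeR adjusted p = 0.0555) or without TMM factors (0.0665).

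The RefSeq promoter of Cftr, the 250 bases before its start, is shown beside those of Kcne3 because the gene moved in the other direction. Capitals again mark CCAAT and GC box matches, taken so that none overlap, and the strand is plus.
Cftr promoter, chr6:18170436-18170685: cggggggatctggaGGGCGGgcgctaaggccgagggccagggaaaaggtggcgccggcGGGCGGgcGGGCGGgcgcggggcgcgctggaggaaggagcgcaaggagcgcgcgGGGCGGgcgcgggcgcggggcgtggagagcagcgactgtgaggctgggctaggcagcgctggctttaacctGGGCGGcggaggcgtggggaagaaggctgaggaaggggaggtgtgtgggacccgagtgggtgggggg
Its GC content was 76.4%. Counted without overlap, it held 5 GC boxes, at 236, 192, 184, 138 and 67 bases before the start, and 0 CCAAT matches. A further GGGCGG overlaps the boxes at 192 and 184 bases, and was neither counted nor marked. The letters TGACG, part of the cyclic AMP response element, were searched on both strands and were found in 17.8% of all promoters and in none of the 3 windows shown here, and this says nothing of the factor that binds it.

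Slc12a2 encodes NKCC1, the basolateral cotransporter that brings sodium, potassium and chloride into secretory cells. The gene (ENSMUSG00000024597, chr18:58011164-58080812, plus strand) was at 579, 659, 513 and 551 CPM in TG-1 to TG-4, and at 421, 411, 458 and 447 CPM in WT-1 to WT-4. Every TG library was above every WT library. The mean was 575 ± 61.7 CPM in TG and 435 ± 21.8 CPM in WT, a rise of 0.41 with a 95% interval from 0.19 to 0.62, or 1.32-fold (edgeR adjusted p = 0.0137). Slc12a2 was called in each of the 8 leave-one-out fits, with adjusted p from 0.0159 to 0.0498, the last without TG-2. Within the libraries without Y-linked counts it rose by 0.57 (edgeR adjusted p = 0.0356), and within those with them the log2 fold change was 0.24 (edgeR adjusted p = 0.369).

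**Figure D3:**
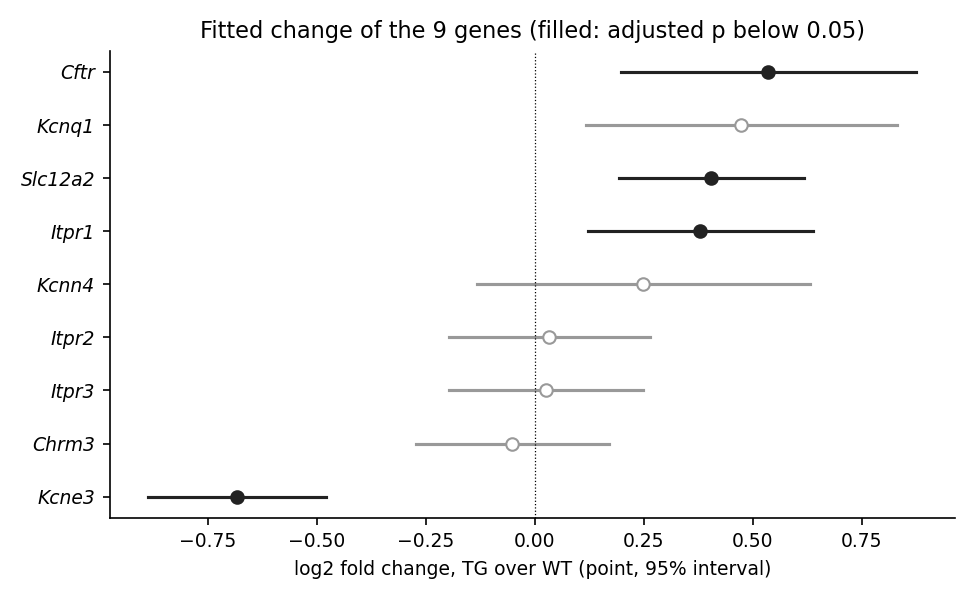
Fitted log2 fold change of each of the 9 genes, TG over WT, with its 95% interval, sorted by size. Filled points passed the test at an adjusted p below 0.05: Cftr (0.54), Slc12a2 (0.41) and Itpr1 (0.38) are to the right of 0 and Kcne3 (-0.68) to the left, while the interval of Kcnq1 also lies right of 0 but its adjusted p was 0.0649.

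**Figure D4:**
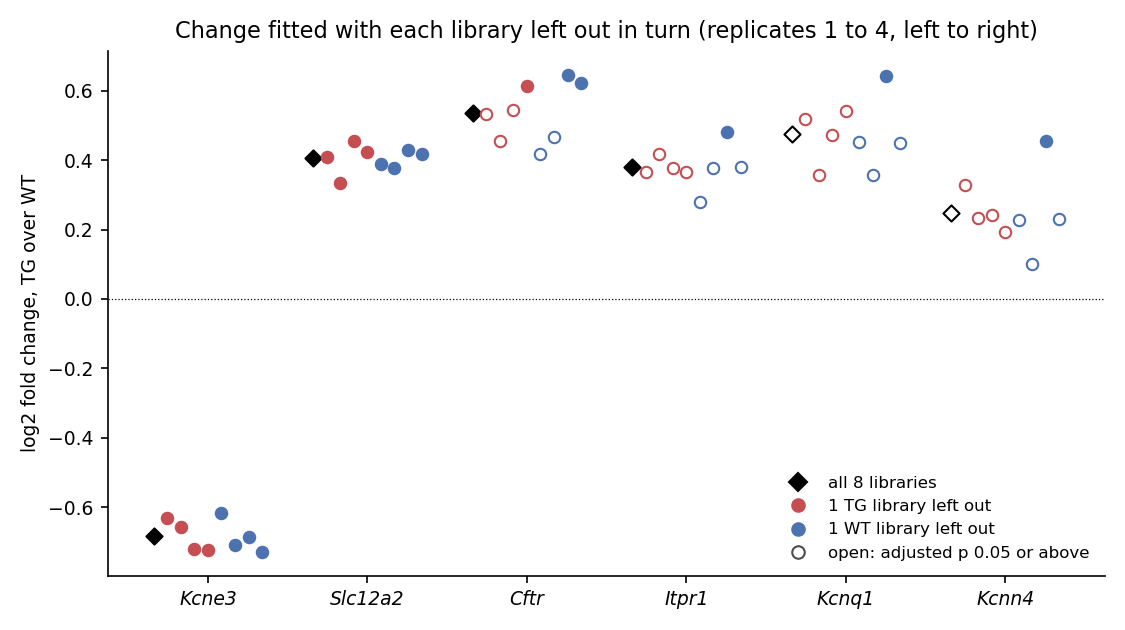
Log2 fold change, TG over WT, of 6 genes with all 8 libraries (diamond) and with each library left out in turn (red for a TG library, blue for a WT library, replicates 1 to 4 from left to right). Filled symbols passed the test: Kcne3 and Slc12a2 did so in 8 of 8 fits, Cftr in 3, and Itpr1, Kcnq1 and Kcnn4 in 1 each, the one without WT-3 for these last genes.

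Of 17 other genes of chloride, bicarbonate and sodium transport, 16 were tested, with 3 higher and 1 lower in TG. Their median log2 fold change was 0.03, and 17.9% of all tested genes were called. Slc26a3, the chloride and bicarbonate exchanger of surface enterocytes, rose by 1.22 from a low level (3.84 ± 1.21 CPM in TG, 1.65 ± 0.427 CPM in WT, edgeR adjusted p = 0.00894). Fxyd3, a regulator of the sodium pump, fell by 0.35 (edgeR adjusted p = 0.0167), and Slc9a2, a sodium and proton exchanger, rose by 0.56 (edgeR adjusted p = 0.0380). Ano1, the calcium-activated chloride channel gene of many glands, had 131 counts over the 8 libraries and was not called. Summed enterocyte markers were higher in every TG library than in every WT library, as given above, and their part in these changes was not tested.

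Upstream regulators of Cftr and NKCC1 formed a list of 17 genes, each tested. Of these 2 were higher and 0 lower in TG, beside 8.26% and 9.65% of all tested genes. Vipr1, a receptor of vasoactive intestinal peptide that raises cyclic AMP, rose by 0.66 (40.6 ± 3.71 CPM in TG, 25.6 ± 5.0 CPM in WT, edgeR adjusted p = 0.00346). Adcy6, an adenylate cyclase, rose by 0.58 (208 ± 22.3 CPM in TG, 139 ± 27.4 CPM in WT, edgeR adjusted p = 0.00846). Stk39, Oxsr1, Wnk1 and Wnk4, the kinases that activate NKCC1, and Gucy2c, the guanylate cyclase receptor, were not called.

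Of 15 genes of granule exocytosis 13 were tested, with 2 higher and 1 lower. Vamp2, a vesicle SNARE, rose by 0.70 (46.3 ± 6.96 CPM in TG, 28.5 ± 7.0 CPM in WT, edgeR adjusted p = 0.0102). The granule GTPase genes Rab27b and Rab27a moved in opposite directions: Rab27b rose by 0.31 (edgeR adjusted p = 0.0401) and Rab27a fell by 0.35 (edgeR adjusted p = 0.0441). Over all 7 lists together, 87 of 105 genes were tested, with 10 higher and 8 lower in TG and a median log2 fold change of -0.01. Without TMM factors 9 were called higher and 0 lower by edgeR. The share called, 18 of 87 genes, is to be read against the 17.9% of all tested genes.

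**Figure D5:**
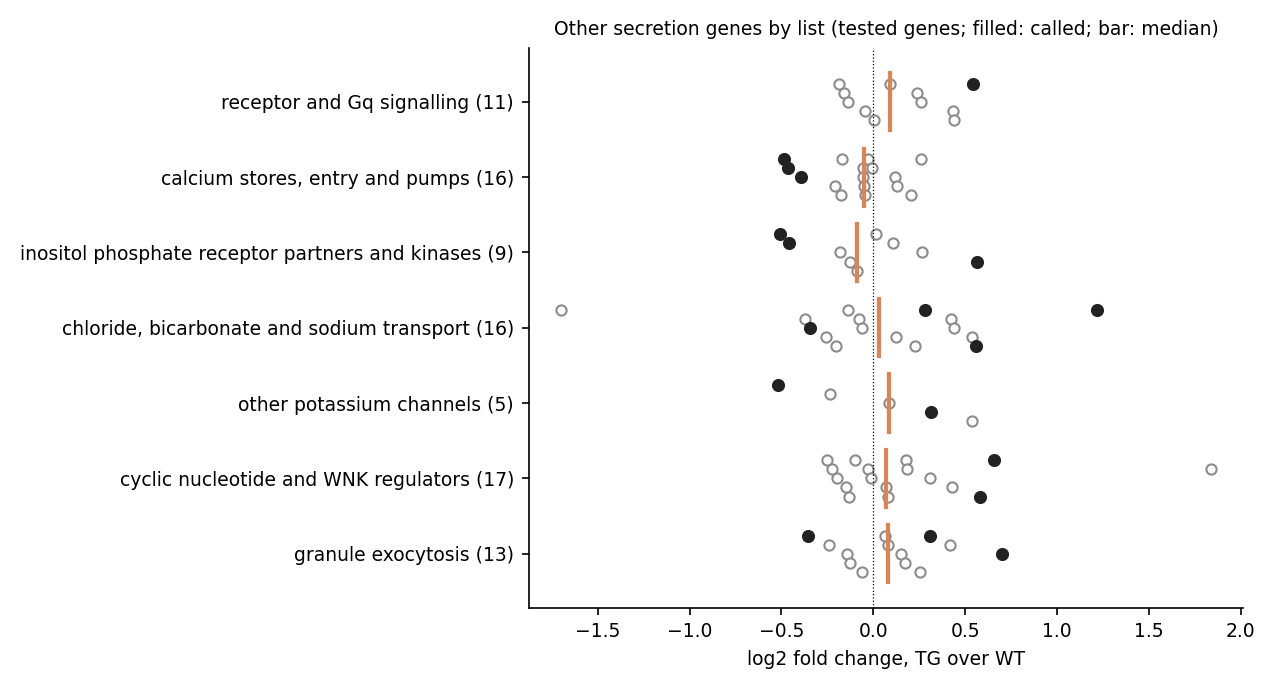
Log2 fold change, TG over WT, of each tested gene in 7 lists of secretion genes, with the number tested in brackets, filled points for genes that passed the test and an orange bar for the median of the list. The medians lie between -0.09 and 0.09, and called genes stand on both sides of 0 in 4 of the 7 lists.

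Genes with the most similar pattern over the 8 libraries were sought among 8120 tested genes by Pearson's r of log2 CPM, as a description. For Slc12a2 one of the closest was Cpt1a (r = 0.98), a mitochondrial enzyme of fatty acid oxidation. Kcne3 was closest to Spryd4 and Mrps18b (r = 0.996 and 0.995), and Cftr to Hars2 (r = 0.997) and Slc16a10 (r = 0.984). Itpr1 was closest to Zkscan8 and Klc4 (r = 0.97 each). Hars2 and Zkscan8 were themselves not called (edgeR adjusted p = 0.118 and 0.108). These 8 points share 2 groups and the kinds of library named above, and the highest of 8120 values is high by its choice.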

How the data were processed

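RNA of FACS-sorted Paneth cells was sequenced in 4 TG and 4 WT libraries, grouped and numbered by the labels. The deposited table held whole-number counts, not normalised, for each Ensembl gene in each library. The submitters' processing notes name FastQC 0.12.0, STAR 2.7.0a, DESeq2 and the mm39 build, with no role for each. The study describes its own STAR alignment with a GENCODE annotation and Salmon quantification, which are not stated to have made this table. For the table itself, the counting tool, its strand setting, the annotation and the handling of reads that align more than once are not stated in the sources used here.

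Symbols, positions and exon lengths came from GENCODE vM39 on GRCm39, which matched 54749 of 55414 IDs. The quasi-likelihood test of edgeR 4.0.16 (R 4.3.3, robust) was run on these counts with TMM factors, edgeR's own low-count filter and a single term for the group, and p-values were adjusted by Benjamini-Hochberg over the 11929 genes that passed. A gene was called at an adjusted p below 0.05. Standard errors were derived from the fold change and the square root of F. The steps were tested on simulated data. Means are given with the SD over 4 libraries, and intervals with a level of 95% come from the fit. Total counts were 13107397 to 16218434 per library, which sets the precision for genes with few counts. No library was a duplicate of another, as chi-square over its degrees of freedom was at least 5.20 for every pair.

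The 9 genes, the lists of other secretion genes and the cell type markers were chosen with earlier results of these data known. The text names all 9 genes, up to 3 called genes of each list with the smallest p, the 2 genes most like each called gene of the 9 by Pearson's r (log2 CPM with a prior count of 2, mean of at least 3) and genes that overlap one of the 9. Some genes that this rule names are not reported here. Other genes were named after their values were seen, to show the receptor and channel genes that did not pass. Promoters came from the RefSeq table of build GRCm38.p6, matched by sequence to GRCm39.

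Alternatives were DESeq2 1.42.0, voom with quality weights in limma 3.58.1, RLE factors, total counts without factors, a replicate block, a covariate for Y-linked counts, testing without a filter or with one at 1 CPM in 4 libraries, factors computed without 28 alpha-defensin genes, separate fits of the libraries that had Y-linked counts and of those that had none, and each library left out in turn. For levels per kb, the longest transcript replaced the exon union.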

Additional observations from a re-analysis of the deposited data

Results flagged for a closer look

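Each of the 9 genes was examined in each group of 4 libraries for a value far from the others, 18 groups in all, by the gap to the nearest value over the range of the group (Dixon's test at the 95% level). Chance flags about 1 in 20 groups, and 2 of the 18 were found. Chrm3 was at 38.8 CPM in WT-3, with WT-1, WT-2 and WT-4 between 52.3 and 53.9 CPM, and the gap took up 0.891 of the range. Itpr2 was at 23.0 CPM in WT-4, with WT-1, WT-2 and WT-3 between 18.8 and 19.2 CPM, and the gap took up 0.897 of the range. Neither gene was called in any fit that left out 1 library, those without these libraries included.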

How the results depend on the processing

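With 8 libraries and another tool, scaling, filter or term (9 settings), Kcne3 and Slc12a2 were called each time (adjusted p from 2.08e-09 to 0.0103 and from 0.000212 to 0.0180), Itpr1 in 8, Cftr in 7 and Kcnq1 in 3. The number of the 9 genes called higher, 3 in the report, was 1 with total counts, which left Slc12a2 and shifted the median change over all genes on the log2 scale from 0.01 to 0.12. It was 0 in the libraries with Y-linked counts, where 113 of 12024 tested genes were called higher. With each library left out it was from 1 to 5, 5 without WT-3, beside 485 to 1045 of all tested genes. The number of the 9 called lower was 0 by edgeR in the libraries with Y-linked counts, and 1 in every other setting. In that fit 103 of all tested genes were called lower, and 1 of the 9 genes had an unadjusted p below 0.05. Secretion list genes called higher, 10 in the report, were 3 and 6 in the libraries with and without Y-linked counts and 5 to 9 with each library left out. Over all tested genes these fits called 113, 500 and 485 to 1045 higher, against 985 in the report. List genes called lower, 8 in the report, were 0 with total counts, 0 in the libraries with Y-linked counts and 4 to 9 with each library left out. The counts called lower over all tested genes were 263, 103 and 553 to 1183, against 1151. The fit of the 4 libraries without Y-linked counts called 3 of the 9 genes higher and 1 lower. Of its 12061 tested genes it called 500 higher and 638 lower. The cause of these changes was not tested.

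Genes near no change turned direction without a call: Chrm3 was at 0.075 with total counts and 0.034 in the libraries with Y-linked counts, Itpr2 at -0.0057 with voom, -0.0016 in the libraries with Y-linked counts and -0.036 to 0.10 with each library left out, and Itpr3 at -0.080 in the libraries with Y-linked counts and -0.036 to 0.10 with each library left out. With the longest transcript as length, the mean shares of Itpr1, Itpr2 and Itpr3 were 22.8%, 18.8% and 58.4% in TG and 18.5%, 19.8% and 61.6% in WT. This reversed the order of the Itpr1 and Itpr2 means in TG.

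The deviations of same-numbered libraries from their group means correlated by 0.08, 0.07, 0.29 and 0.23. Libraries with different numbers were not compared in this way, so that these values cannot tell whether replicate numbers pair the libraries. Replicate numbers and the presence of Y-linked counts went together in both groups. With a replicate block 2 of the 9 genes were called higher and 1 lower, since Cftr, at 0.55 on the log2 scale, had an adjusted p of 0.0555. Kcnn4, with 142 counts in WT-2, is the gene whose value rests on the fewest counts.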

Other observations

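Kcnq1 had a pattern across the kinds of library like that of Cftr. In the 4 libraries without Y-linked counts its log2 fold change, TG over WT, was 0.80 (edgeR adjusted p = 0.0204), and in the 4 with them 0.18 (edgeR adjusted p = 0.606). The difference had an unadjusted p of 0.0452 and an adjusted p of 0.864 over all tested genes, so that it was not called. Of the 9 genes, Cftr and Kcnq1 were those with an unadjusted p below 0.05 in this test, and 0 of the 9 were called.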
